A study of Mus musculus with 23 samples.

Results

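Type 3 is 1 of the expression groups into which clonal mouse white preadipocyte lines were sorted, and it holds lines from both fat depots: 4 lines whose clone names begin with PGF (PGF2-2, PGF2-5, PGF3-3 and PGF3-15) and 4 whose names begin with SCF (SCF1-12, SCF1-13, SCF1-15 and SCF3-9), 8 of the 23 lines measured. The lines were chosen by their type label and clone name; the prefixes were read as perigonadal and subcutaneous fat, since the tissue label names both depots for every line. The question was whether lines of 1 type still carry the depot they came from. All 23 are Immortomouse lines, which carry a conditional SV40 large T antigen that is induced by interferon-gamma and active at the permissive temperature. They came from the stromovascular cells of a single male mouse aged 8 weeks, were kept at 33 °C in 10 units/mL of interferon-gamma in both groups, and were begun from 190 single cells sorted without gating after 2 passages. Each line is therefore 1 clone, and p-values measure the spread between clones of 1 animal, not between animals. No drug or genetic change separates the groups. One array was run per line, and the labels do not say whether its RNA came from undifferentiated cells. The comparison group used below, labelled Other, holds lines given no numbered type, 4 SCF and 3 PGF, with the same origin and culture.

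Perigonadal fat is a visceral depot and inguinal fat a subcutaneous one. Their precursors arise from different mesodermal territories, and patterning genes such as Tbx15, Hox genes and Wt1 are known to mark fat by position. Visceral precursors are also known for chemokine and matrix programmes. In the study Wt1, Tagln and Mx1 mark Types 1, 2 and 3.

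The preadipocyte label was set against its defining genes and those of other cell types. Pdgfra, a receptor of adipocyte precursors, read 10.98 to 12.50 on the log2 scale in the 8 lines, and Pparg, the regulator of fat cell formation, 7.09 to 8.93. Ptprc, the pan-leukocyte gene, read 2.86 to 3.33, and Pecam1, an endothelial gene, 3.33 to 3.63, both under the table median of 5.13. Epcam, an epithelial gene, read 5.90 to 6.38 and Sox10, a glial gene, 5.92 to 6.32, both above that median in all 8 lines. Of 12 leukocyte markers 4 were above that median in all 8 lines, of 11 endothelial markers 2 were, of 10 epithelial markers 3 and of 7 glial and neuronal markers 2. The mean level of the leukocyte list was 4.90 to 5.59 in SCF lines and 5.21 to 5.55 in PGF lines, that of the epithelial list 4.59 to 4.76 and 4.65 to 4.80, and that of the glial and neuronal list 5.63 to 6.12 and 5.67 to 6.03. Their part in any difference was not tested. Array medians lay between 5.10 and 5.16 in the 8 lines, and their array pairs correlated at 0.976 to 0.992 with none identical. The actin probe sets read 0.68 to 0.98 higher at the 3' than at the 5' end, and highest in SCF3-9. For Gapdh the same difference was 0.11 in SCF3-9 and -0.03 to 0.04 in the other Type 3 lines.

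One Type 3 line stands apart, and it is an SCF line. SCF3-9 differed by over 2-fold from the median of the other 7 lines in 844 genes, 442 higher and 402 lower, while each of the other lines did so in 123 to 248 genes. This line also had the highest 3' to 5' differences in actin and Gapdh, whose part in this count was not tested. Mx1, the antiviral gene that marks Type 3 in the study, read 8.44, 7.87, 7.47 and 4.56 in SCF1-12, SCF1-13, SCF1-15 and SCF3-9, and 6.67, 9.31, 7.55 and 8.28 in PGF2-2, PGF2-5, PGF3-3 and PGF3-15. Mx1 was not particular to Type 3 in these data, at 3.98 to 10.84 in the 15 lines outside it. It read 6.72 to 8.51 in Type 1 and 4.43 to 6.54 in Type 2 SCF lines. Other lines reached 10.70 in SCF and 10.84 in PGF. Within Type 3 only SCF3-9 lies below the rest. The same line is low in genes that interferon-gamma induces: Gbp3, a guanylate-binding GTPase of host defence, read 9.14 in SCF3-9 but 12.24 to 12.65 in the other 7 Type 3 lines and 12.06 to 13.14 in the 15 lines outside Type 3. H2-Aa, an MHC class II chain, read 7.40 in SCF3-9 and 10.70 to 12.77 in the other 7, and Cd74, its invariant chain, 6.43 against 10.00 to 11.62. It is high in Dcn, the matrix proteoglycan decorin, at 12.72 against 4.81 to 7.62 in the other 7, and in Mgp, matrix Gla protein, at 11.41 against 6.27 to 7.91. Penk, the opioid peptide precursor proenkephalin, read 8.77 against 3.92 to 5.33. It was above the table median only in SCF lines, and passed the filter through them alone. Ebf3, a transcription factor, read 2.87 in SCF3-9 against 6.75 to 8.13. Among all 23 lines the profile of SCF3-9 correlated best with that of SCF3-16, an Other line, at 0.398. Dcn read 11.44 in SCF3-16 and 11.23 to 13.32 in Type 1 lines, and Ebf3 3.67 to 4.28 in Type 1. In the 15 lines outside Type 3, Mgp reached 10.88 and Penk 5.51. There H2-Aa read 9.99 to 13.00 and Cd74 9.24 to 11.84. These genes were chosen after their values were seen. The PGF minus SCF differences of these genes move with that line: without it Mx1 went from 0.87 to 0.02, Dcn from -2.38 to -0.94, Mgp from -1.22 to -0.13, Penk from -1.49 to -0.43, Ebf3 from 1.09 to -0.076, Gbp3 from 0.80 to -0.044, H2-Aa from 0.60 to -0.65 and Cd74 from 0.79 to -0.40.

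**Figure D1:**
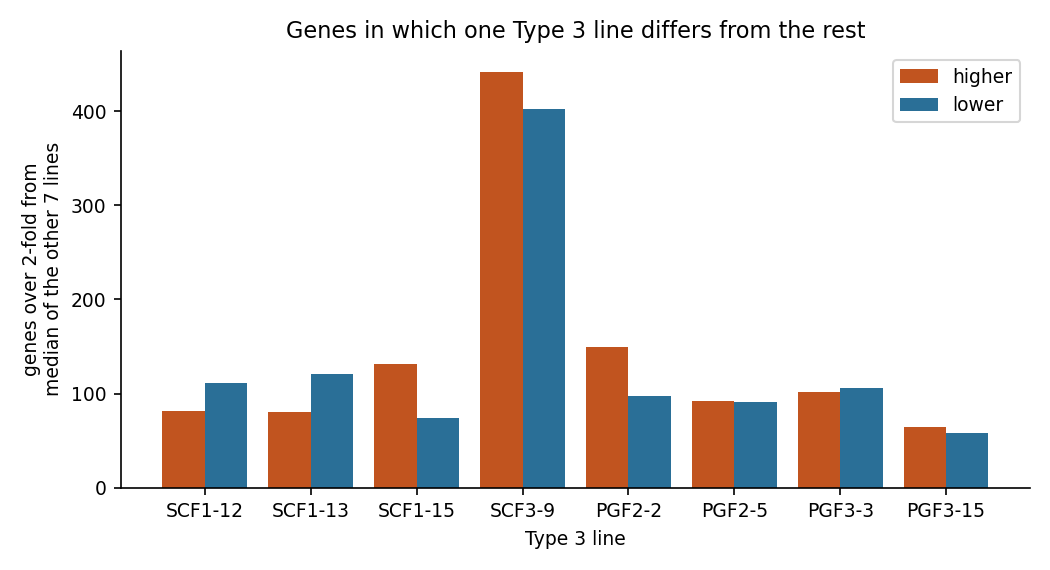
Bars give, for each Type 3 line, the number of genes more than 2-fold higher or lower than the median of the other 7 lines; each bar rests on 1 array. SCF3-9 has 442 higher and 402 lower genes, against 123 to 248 in all for each other line.

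Depot differences within Type 3 were small and none passed. With limma on the deposited log2 values, 0 of 12307 genes had a Benjamini-Hochberg adjusted p under 0.05 (0%), the smallest adjusted p being 0.999. At an unadjusted p under 0.05 there were 448 genes (3.64%), 213 higher in PGF (1.73%) and 235 lower (1.91%). The standard error of a difference had a median of 0.14 on the log2 scale, and 89.5% of genes had a 95% interval lying within 1 log2 unit, that is 2-fold, of 0. The difference of means was over 2-fold in 105 genes (0.853%). The median size of the difference was 0.10 in Type 3 and 0.16 between PGF and SCF lines among the Other lines, where 22 genes passed (0.179%).

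The 4 PGF lines did not overlap the 4 SCF lines in 323 genes (2.62%), 163 higher in PGF (1.32%) and 160 lower (1.3%). Without SCF3-9 this count was 692, a value that leaves 4 lines against 3. The genes below were picked mainly by the size of the difference of means or by p, not by the gap between the groups. They are described by their values, and each missed the adjusted threshold.

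Cxcl5 had the largest difference of the genes higher in PGF without overlap, and 2 other chemokines, Cxcl1 and Ccl7, also did not overlap. They were 3 of 26 tested genes in the list of cytokines, chemokines and acute phase genes. Over all genes tested, 163 of 12307 (1.32%) were higher in PGF without overlap. Cxcl1 and Cxcl5 are chemokines that attract neutrophils through the receptor Cxcr2, and Ccl7 attracts monocytes through Ccr2. Because Cxcl1 was measured in both depots without overlap, the 250 bases before its start site, chr5:90890995-90891244 on the plus strand of GRCm38.p6 from RefSeq, are shown with the single match to the NF-kappaB motif in capitals:

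Cxcl1: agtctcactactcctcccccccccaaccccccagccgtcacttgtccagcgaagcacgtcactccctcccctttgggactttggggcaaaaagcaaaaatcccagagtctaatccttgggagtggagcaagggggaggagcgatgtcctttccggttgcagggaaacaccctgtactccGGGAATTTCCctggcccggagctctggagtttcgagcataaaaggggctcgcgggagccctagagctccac

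The pattern searched was GGGA, any base, TT, any base, CC, on both strands, found in 322 of 32851 RefSeq windows of that length (0.980%). A match is a description of the sequence and not a site shown to be bound.

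Cxcl5 read 5.41, 7.22, 7.94 and 6.56 in the SCF lines and 10.05, 10.13, 9.90 and 10.25 in the PGF lines. All 4 PGF lines lie above all SCF lines and close to one another, while the SCF lines spread widely. The difference of 3.30 ± 1.02 (SE from the spread of all 23 lines, means of 4 and 4) had an adjusted p of 0.999 in limma, the value of every gene in this paragraph. The SD of Cxcl5 was 1.08 in Type 3 SCF and 0.14 in Type 3 PGF, but 3.18 in Other PGF lines. For Cxcl1 these SDs were 0.32, 0.40 and 2.79. Cxcl1 read 7.41, 7.31, 8.03 and 7.62 in SCF and 8.88, 9.18, 9.75 and 9.59 in PGF, again without overlap, a difference of 1.75 ± 0.69. Ccl7 read 11.63, 11.08, 11.60 and 10.28 in SCF and 11.81, 12.58, 12.19 and 12.15 in PGF, the lowest PGF line only just above the highest SCF line, a difference of 1.04 ± 0.41. The gap in Cxcl5 ran the other way among the Other lines, at -2.10, where 4 SCF lines read 8.66 to 10.30 and 3 PGF lines 4.10 to 10.44. The interaction of depot with type for Cxcl5 had an adjusted limma p of 0.288.

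Over the whole list of cytokines, chemokines and acute phase genes, 21 of 26 genes tested had higher means in PGF, with a median difference of 0.25, against 6414 of 12307 and 0.01 for all genes. None passed and 4 had an unadjusted p under 0.05, all higher in PGF, against 213 of 12307 genes higher (1.73%) over all genes tested. Without SCF3-9 the count was 22 of 26, the median 0.30. Il6, an inflammatory cytokine, read 7.75, 7.56, 9.21 and 3.83 in SCF and 7.34, 9.47, 8.68 and 8.66 in PGF, its one very low value being SCF3-9 and the rest overlapping. Its difference was 1.45 with all 8 lines and 0.37 without that line.

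The other genes higher in PGF without overlap included 2 with a contractile or developmental role. Mylk, the myosin light chain kinase that drives smooth muscle contraction, read 8.53, 7.87, 8.00 and 5.53 in SCF and 9.15, 11.19, 9.49 and 9.22 in PGF, a difference of 2.28 ± 0.81. The differences of its 3 probe sets ranged from 0.26 to 2.28. Sox11, a transcription factor of embryonic progenitors, read 6.22, 7.03, 7.02 and 5.22 in SCF and 9.27, 7.98, 8.05 and 8.02 in PGF, a difference of 1.96 ± 0.82, and all 6 of its probe sets ran the same way. In both genes SCF3-9 is the lowest line, and without it the differences were 1.63 and 1.57.

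On the lower side, 3 of the 4 largest differences without overlap were in dehydrogenase genes. Aldh1a1 makes retinoic acid from retinal, Aldh1a7 is its close neighbour and relative, and Adh1 oxidises retinol. Aldh1a1 read 8.95, 9.39, 8.45 and 8.83 in SCF and 5.58, 6.20, 8.18 and 7.60 in PGF. No PGF line reaches the lowest SCF line, but PGF3-3 comes close to it and PGF2-2 is the lowest. The difference was -2.01 ± 0.47 (95% interval -3.00 to -1.03, adjusted p = 0.999 in limma). Aldh1a7 read 7.19, 8.23, 6.75 and 6.68 in SCF and 4.65, 5.38, 6.48 and 4.77 in PGF, a difference of -1.89 ± 0.68, with PGF3-3 again the highest PGF line. Adh1 read 6.81, 6.87, 6.92 and 8.36 in SCF and 5.92, 6.18, 6.10 and 4.81 in PGF, a difference of -1.49 ± 0.71, the highest value being SCF3-9.

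The starts of Aldh1a1 and Aldh1a7 are shown because the 2 genes read in step across these lines and lie near each other on chromosome 19. For Aldh1a1 the table lists 2 starts, of which the one further along is shown; the 250 bases before the other hold no CCAAT on either strand. Both windows hold the 250 bases before the start, with CCAAT or its reverse complement in capitals, from RefSeq, GRCm38.p6. Aldh1a1 is at chr19:20601718-20601967 on the plus strand and Aldh1a7 at chr19:20727557-20727806 on the minus strand:

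Aldh1a1: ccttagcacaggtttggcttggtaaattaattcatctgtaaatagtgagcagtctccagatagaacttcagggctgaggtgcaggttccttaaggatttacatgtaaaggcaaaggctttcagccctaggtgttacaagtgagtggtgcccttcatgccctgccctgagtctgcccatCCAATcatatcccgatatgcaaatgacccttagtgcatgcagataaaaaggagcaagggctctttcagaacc

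Aldh1a7: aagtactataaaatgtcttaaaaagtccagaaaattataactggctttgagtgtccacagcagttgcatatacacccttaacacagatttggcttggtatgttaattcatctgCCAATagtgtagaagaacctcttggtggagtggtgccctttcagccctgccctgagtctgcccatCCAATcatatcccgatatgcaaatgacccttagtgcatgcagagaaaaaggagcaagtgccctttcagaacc

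The last 100 bases were identical at 94 positions, and CCAAT was present in 11120 of 32851 windows of that length (33.8%). In the 3 Type 1 lines, all perigonadal, the Aldh1a1 probe set read 12.12 to 12.66, above all Type 3 lines, while the Aldh1a7 probe set read 3.76 to 5.54, below the Type 3 SCF lines. The genes thus did not read together there, and signal from 1 gene on the other's probe set was not tested.

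Krt19, a keratin of simple epithelia and mesothelium, read 7.33, 7.44, 7.38 and 6.30 in SCF and 4.96, 6.15, 5.12 and 5.91 in PGF, a difference of -1.58 ± 0.69, with SCF3-9 the lowest SCF line. It was thus higher in the subcutaneous lines of Type 3, but its difference in Other lines was 1.15, the opposite direction. Its list of mesothelial genes had 6 of 14 genes higher in PGF and a median of -0.02. Fbln5, an elastic fibre protein, read 10.75, 10.76, 11.43 and 11.97 in SCF and 9.82, 10.63, 9.76 and 10.66 in PGF, a difference of -1.01 ± 0.31. Its other probe set differed by -0.18.

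Among the remaining genes of smallest p, the higher side held Spry3, a Sprouty family inhibitor of growth factor signalling. It read 4.99, 4.27, 4.05 and 4.11 in SCF and 5.23, 5.21, 5.71 and 5.87 in PGF, without overlap (1.15 ± 0.25, adjusted p = 0.999 in limma). Its unadjusted p was the smallest of all genes. Only the Type 3 PGF lines read above the table median, so Spry3 passed the filter through those lines alone. Its SCF values lay below that median, as did the 3.82 to 4.94 of the lines outside Type 3. Jak2, a kinase of cytokine receptors, differed by 0.75 ± 0.21, with SCF lines at 8.58 to 9.69 and PGF lines at 9.86 to 10.12. Preb, Vmp1, Spink2, Marcksl1, Trp53rkb, Ap1ar and Tmem161b, all without overlap, differed by 0.32 to 0.87, and Draxin and Steap2, which overlap, by 1.12 and 0.54. On the lower side Pdp1, the phosphatase that activates pyruvate dehydrogenase, differed by -0.91 ± 0.24, with SCF at 7.68 to 8.99 and PGF at 7.14 to 7.68. Glud1, glutamate dehydrogenase, differed by -0.49 ± 0.14, and Fzd6, a Wnt receptor, by -0.83 ± 0.24. Tspan5, Capns1, Mtmr1, Snx6, S100b, Sptan1 and Zfp36l2 differed by -0.32 to -1.15, and of these Tspan5 and S100b overlap. In Mtmr1 and Snx6 1 further probe set ran the opposite way. The smallest difference of a probe set was -0.027 in Fzd6 and -0.0074 in Zfp36l2.

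**Figure D2:**
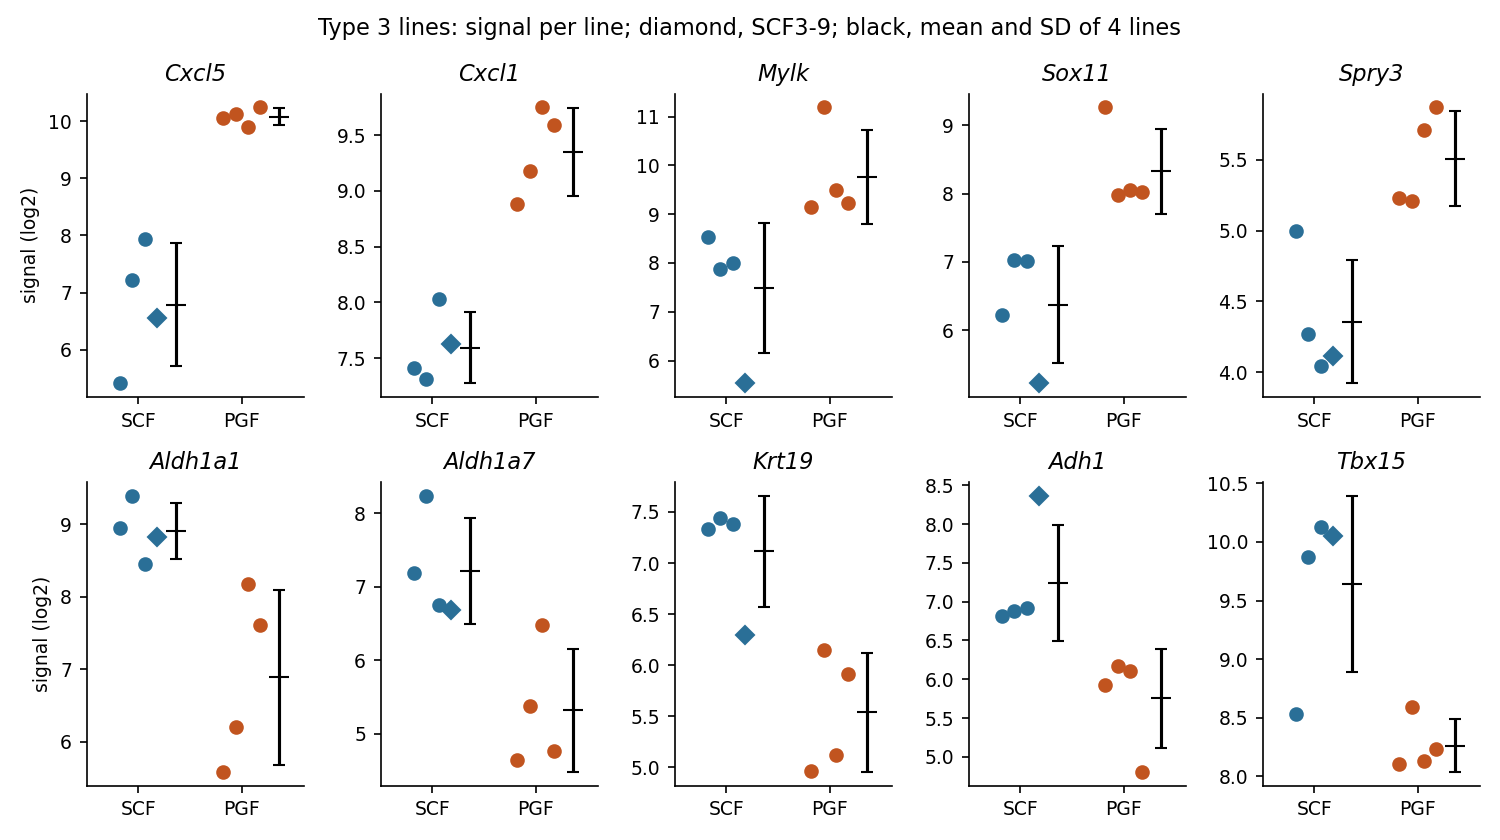
Each point is 1 Type 3 line on the log2 signal scale, SCF in blue and PGF in orange, with SCF3-9 as a diamond; black bars give the mean and SD of 4 lines. Cxcl5 lies at 9.90 to 10.25 in PGF and 5.41 to 7.94 in SCF, and each gene but Tbx15 is free of overlap. Axes differ between genes.

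Zfp182, a zinc finger gene of the X chromosome, showed a different pattern. It read 2.81, 2.90, 2.20 and 6.14 in SCF1-12, SCF1-13, SCF1-15 and SCF3-9 and 5.66, 5.57, 5.75 and 6.00 in the PGF lines, and 5.06 to 6.19 in the 15 lines outside Type 3. It is the 3 SCF1 lines of Type 3 that are low, not the SCF lines as a whole, so the 4 and 4 overlap. The difference was 2.23 ± 0.53 over all 8 lines, with an adjusted limma p of 0.999. It was 3.11 without SCF3-9, where limma's adjusted p was 1.28e-07. SCF3-9 is the only SCF line that reads against the difference, so the p without it is no support for a depot difference. All 3 probe sets of Zfp182 ran the same way, but their differences ranged from 0.37 to 2.23. Of 12307 genes, 10 set these 3 lines beyond all the other 20 lines, and Zfp182 was the one gene with a gap over 1 log2 unit. Its neighbours on the X chromosome read near their usual level in the 3 lines: Uxt, a cofactor chaperone, 7.86 to 8.09 against 7.52 to 8.82 in the other 20 lines, and Elk1, a transcription factor, 6.50 to 6.63 against 6.29 to 6.92.

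Depot patterning genes are described as lists by counts and medians, with no test of a list. In the subcutaneous-type patterning list 1 of 7 genes was higher in PGF and 6 were lower, with a median of -0.19. For all genes the values were 6414 of 12307 higher and 0.01. Without SCF3-9 2 of 7 were higher, with a median of -0.14. The mean of the list after centring each gene was 0.60 in SCF3-9, and -0.12, 0.05 and 0.05 in SCF1-12, SCF1-13 and SCF1-15. In the PGF lines it was 0.14 in PGF2-2 and -0.40 to -0.15 in the rest. Tbx15, a T-box factor that marks subcutaneous fat, read 8.53, 9.87, 10.13 and 10.05 in SCF and 8.10, 8.59, 8.13 and 8.23 in PGF, a difference of -1.38 ± 0.47 (adjusted p = 0.999 in limma). SCF1-12 lies within the PGF range and the other 3 SCF lines are above it. Hoxc9 read 8.24 to 8.47 in SCF and 8.08 to 8.21 in PGF, without overlap but only 0.25 apart.

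The visceral-type list was split, 5 of 10 higher, with a median of -0.07 that became 0.01 without SCF3-9. Wt1, which drives mesothelial and visceral fat development, read 3.35, 3.53, 3.74 and 3.01 in SCF and 3.15, 4.09, 5.24 and 3.55 in PGF, mostly under the table median, against 10.40 to 10.65 in the Type 1 lines. PGF3-3 was its highest line, and the difference of 0.60 was 0.19 without it. Osr1, a kidney and limb mesoderm factor, read 9.61 to 10.50 in SCF and 8.87 to 10.15 in PGF, a difference of -0.81 ± 0.31. Pitx1, a hindlimb factor, was high in 2 SCF lines, SCF1-13 at 7.89 and SCF3-9 at 7.18, and 4.46 to 4.83 in the other 6, and its difference of -1.52 was -0.94 without SCF1-13. Outside Type 3 only SCF3-8, at 6.67, read above the table median, so Pitx1 passed the filter through SCF lines alone. Among 20 Hox genes tested 11 were higher in PGF and the median was 0.08, and without SCF3-9 14 were higher with the same median. Hoxd8 read 7.90, 7.28, 7.64 and 4.60 in SCF and 8.54, 8.09, 8.12 and 8.23 in PGF, the low value being SCF3-9 (1.39 ± 0.65). Without SCF3-9 the difference in Hoxd8 was 0.64, and those in Hoxc8 and Hoxc6 went from -0.39 to -0.19 and from -0.20 to -0.10.

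The interferon lists turned with SCF3-9. Of 27 interferon-gamma-induced genes 25 were higher in PGF, with a median of 0.34, but without SCF3-9 3 were higher and 24 lower, with a median of -0.17. The type I list went from 20 of 27 higher and 0.27 to 6 of 27 and -0.12. Cxcl10, a chemokine of this response, read 11.23, 9.40, 10.73 and 8.12 in SCF and 9.77, 11.49, 11.63 and 11.18 in PGF, lowest in SCF3-9 and otherwise overlapping, a difference of 1.15 that was 0.57 without it. Gbp7 read 11.33 to 11.68 in 3 SCF lines, 9.26 in SCF3-9 and 11.47 to 11.55 in PGF, a difference of 0.57 that was 0.02 without SCF3-9.

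**Figure D3:**
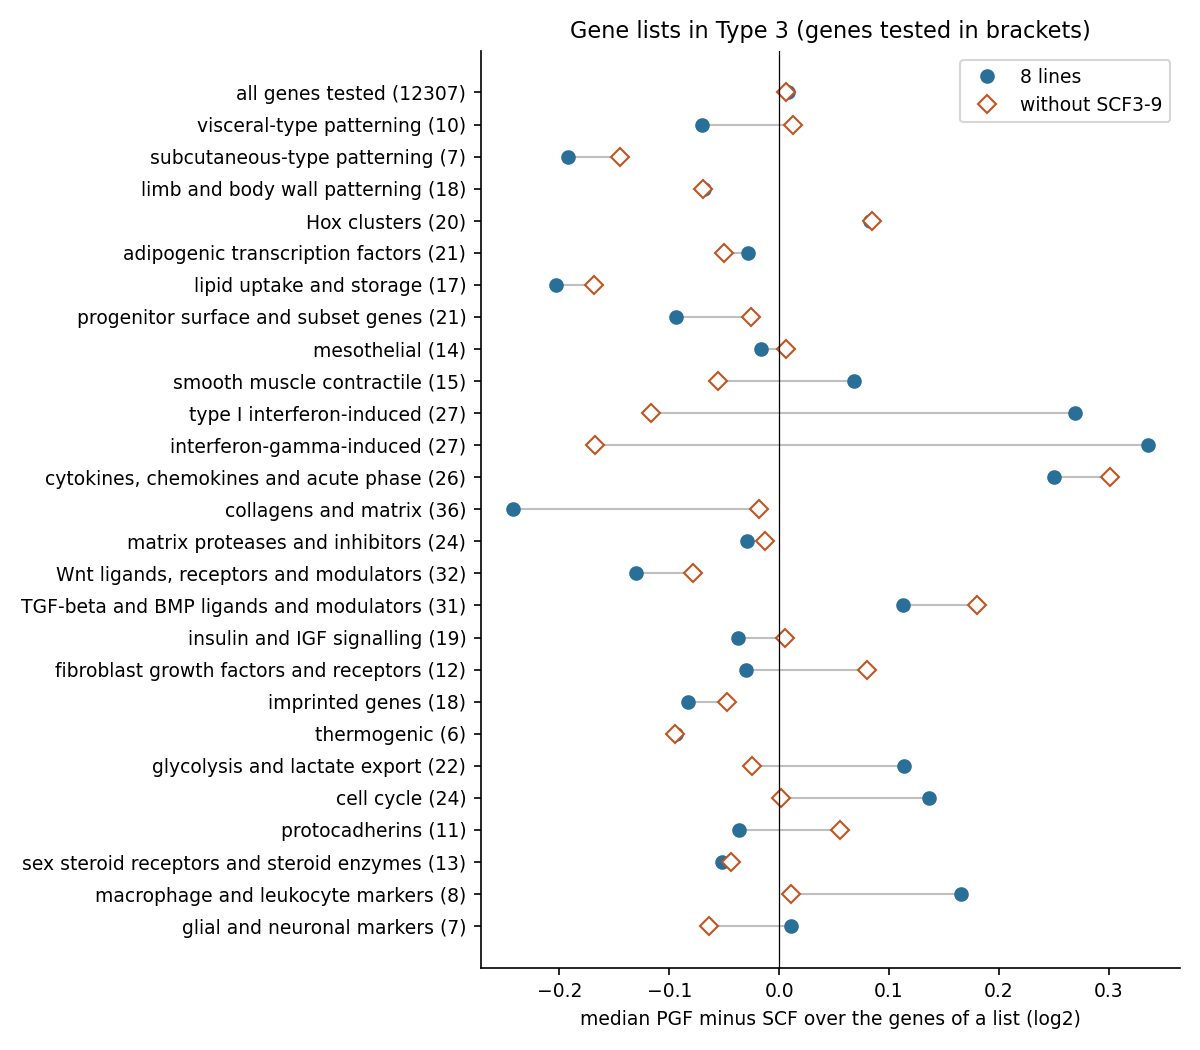
Points give the median PGF minus SCF difference (log2) over the tested genes of each list in Type 3, with all 8 lines (blue) and without SCF3-9 (open diamonds); the number of genes is in brackets. The interferon-gamma list goes from 0.34 to -0.17 and the cytokine list from 0.25 to 0.30.

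Adipogenic genes gave no depot difference that passed. The adipogenic transcription factors had 9 of 21 genes higher in PGF and a median of -0.03, and 0 had an unadjusted p under 0.05. Over all genes the share was 448 of 12307 (3.64%), so 0 of 21 says little about this list. Pparg read 8.93, 8.18, 7.81 and 7.92 in SCF and 7.95, 7.84, 7.09 and 8.15 in PGF, an overlapping difference of -0.46 ± 0.48 that was -0.22 without SCF1-12. Cebpa, its partner in late differentiation, read 8.18 to 9.43 in SCF and 8.03 to 9.59 in PGF (0.34 ± 0.37), Cebpd differed by 0.64 (0.26 without SCF1-12), Srebf1 by -0.37 and Klf4 by -0.47 (-0.28 without SCF3-9). The lipid uptake and storage list had 4 of 17 genes higher and a median of -0.20: Fasn, which makes fatty acids, differed by -0.59 ± 0.22, Pnpla2, the lipase ATGL, by -0.42 with 1 of its 2 probe sets the other way, and Plin2, a droplet coat protein, by -0.33. Dlk1, the preadipocyte factor, read 8.41, 6.88, 7.28 and 8.49 in SCF and 7.10, 5.61, 5.64 and 6.95 in PGF, with overlap (-1.44 ± 0.69). Its other probe set differed by -0.13. The list of collagens and matrix had 14 of 36 genes higher with a median of -0.24, and 18 of 36 and -0.02 without SCF3-9. Tnc, tenascin C, differed by 1.14 ± 0.47.

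The differentiation score of the labels (1 to 4) was 3, 3, 2 and 4 in SCF and 4, 3, 2 and 3 in PGF, a mean of 3.0 ± 0.82 (SD, n = 4) in each (exact permutation p = 1, two-sided). The media acidification score was 4, 3, 3 and 3 in SCF and 3, 3, 1 and 2 in PGF, 3.25 ± 0.50 and 2.25 ± 0.96 (SD, n = 4 each), a difference of -1.0 (exact permutation p = 0.286, two-sided). The labels do not say which end of the acidification scale means more acid.

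No grouping of the lines by depot over the whole profile passed the test. After each gene was centred over the 8 lines, pairs of the same depot correlated at a mean of -0.12 (12 pairs) and pairs of different depots at -0.14 (16 pairs), a difference of 0.024 (exact permutation test over 70 assignments, two-sided p = 0.771). The smallest p that this design allows is 0.0286. The value turned on single lines: without SCF1-12 it was 0.117 (exact permutation p = 0.0571, two-sided), and without SCF1-13, PGF3-3 or PGF3-15 it was -0.018, -0.019 or -0.020. The SCF pairs averaged -0.17 and the PGF pairs -0.06. Depot took up a median of 8.75% and a mean of 14.6% of a gene's variance among the 8 lines; an equal share for each of 7 degrees of freedom would be 14.3%.

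**Figure D4:**
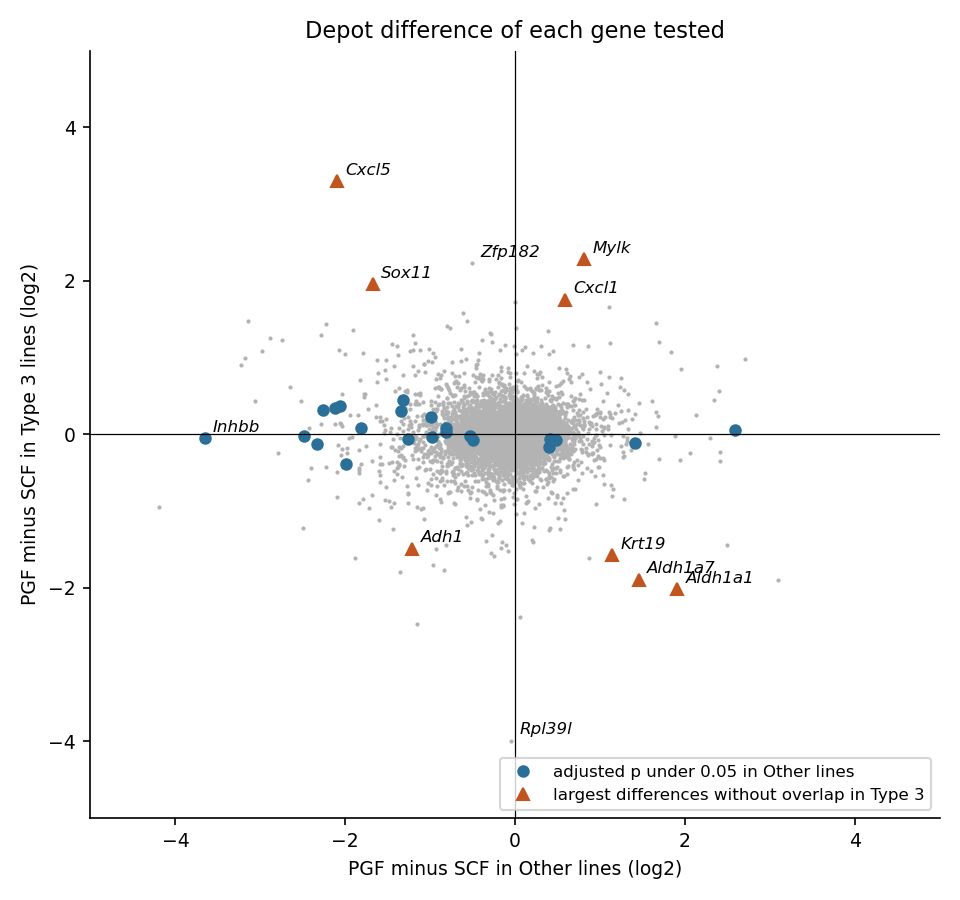
Each grey dot is a gene, with its PGF minus SCF difference (log2) in Other lines on the x axis and in Type 3 on the y axis; blue, genes with adjusted p under 0.05 in Other lines; orange triangles, the 8 largest differences without overlap in Type 3. Genes called in Other lines lie near 0 on the y axis, Inhbb at -3.66 and -0.05.

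The Other lines share no line with Type 3. The 22 genes that passed there included Inhbb, the activin B subunit, which differed by -3.66 in Other and by -0.05 ± 0.55 in Type 3, where it read 10.20, 10.19, 11.12 and 11.43 in SCF and 11.22, 10.38, 10.42 and 10.71 in PGF. Cebpa differed by -2.12 in Other and 0.34 in Type 3, and Prickle2, a planar polarity gene, by -2.06 and 0.37. In the test of the difference itself 0 of 12307 genes passed (0%), with 1096 at an unadjusted p under 0.05 (8.91%). The smallest adjusted p was 0.106, shared by Aldh1a1, Notch3 and Ttc1. Aldh1a1 differed by 1.91 in Other lines and by -2.01 in Type 3, an interaction of -3.92. Without PGF3-3 its interaction was -4.35 with an adjusted limma p of 0.0247. PGF3-3 is the Type 3 PGF line nearest the SCF lines in Aldh1a1, so the p without it is no support for an interaction. Notch3, a Notch receptor of perivascular cells, differed by -1.32 and 0.44, and Bgn, the proteoglycan biglycan, by -0.66 and 0.24. Sox11 differed by -1.68, Aldh1a7 by 1.45 and Krt19 by 1.15 in Other lines, opposite to Type 3. Mylk differed there by 0.82, Cxcl1 by 0.58 and Adh1 by -1.21, as in Type 3. Tbx15 had a mean of 9.07 in Other SCF and 9.27 in Other PGF lines. Of the 323 genes without overlap in Type 3, 161 (49.8%) had the same sign in Other lines, against 53.1% of all genes tested.

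Some genes differed widely between single clones. The range over the 8 lines was over 4 log2 units in 68 genes and over 2 in 611, with a median of 0.56 over all genes tested. The widest genes were named after their values were seen, and some are split into high and low lines while others are graded. Rpl39l, a ribosomal protein gene known from the testis, read 11.23 in SCF1-13 and 11.59 in SCF3-9 and 3.23 to 3.46 in the other 6 lines, and outside Type 3 it read 11.00 in SCF1-23 and 3.13 to 3.53 in the other 14 lines. Only SCF lines read above the table median, so Rpl39l passed the filter through them alone. Its difference of -3.99 was -2.58 without SCF3-9. Rps4l, another ribosomal protein copy, read 11.04, 11.02, 4.24 and 6.01 in SCF and 4.31, 10.01, 10.23 and 9.51 in PGF, high and low in both depots. Both have close relatives in the genome and 1 probe set each, so signal from copies was not tested.

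Casp1, the inflammasome protease, read 4.63, 9.76, 11.17 and 9.20 in SCF and 5.80, 4.80, 8.70 and 5.55 in PGF, and Tcfl5, a germ cell transcription factor, 4.44, 9.32, 9.91 and 9.82 in SCF and 3.49, 9.73, 9.02 and 6.94 in PGF. Cd34, a surface marker of adipocyte progenitors, read 10.85 in SCF3-9 and 9.93 in PGF2-2, and 4.89 to 7.76 in the other 6. Cxcl9, an interferon-gamma chemokine, read 12.35, 11.14, 11.33 and 6.72 in SCF and 11.97, 13.03, 10.29 and 5.40 in PGF, low in 1 line of each depot. Tagln, the contractile gene transgelin, read 9.04, 8.40, 8.50 and 7.66 in SCF and 6.90, 7.17, 8.91 and 9.30 in PGF, with overlap (-0.33 ± 0.92).

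**Figure D5:**
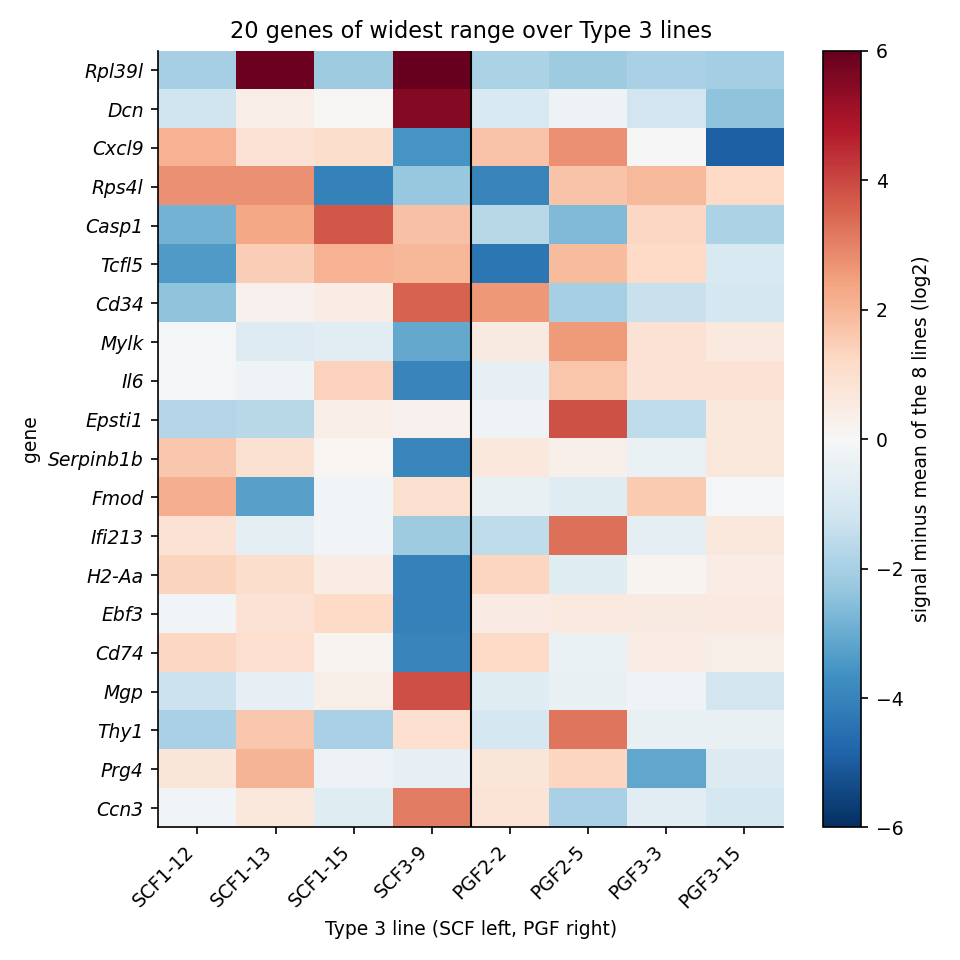
Colour gives the signal of each Type 3 line minus the mean of the 8 lines (log2) for the 20 genes of widest range, with the 4 SCF lines left of the black line and the 4 PGF lines right. Rpl39l is high in SCF1-13 and SCF3-9, and Dcn in SCF3-9.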

How the data were processed

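One array per clonal line was measured in 23 lines. The authors deposited 1 table of log2 values; MAS5 is named in the submitters' processing notes, without its role, and the log2 scale was read from the values (2.03 to 14.46). Array medians were 5.09 to 5.16, so values were used as deposited. Of 45101 probe sets, 34945 carried 1 gene symbol in the platform table and 9211 none; each of 18193 genes was represented by the probe set of highest mean over the 23 lines. Genes above the table median of 5.13 in at least 3 lines were tested, 12307 in all. The number of arrays limits the precision.

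limma 3.58.1 in R 4.3.3 was fitted with 1 mean for each of 7 combinations of type and depot over all 23 lines, so that 16 residual degrees of freedom give the spread, and the contrast was PGF minus SCF within Type 3. Adjustment was by Benjamini-Hochberg over all genes tested. Single values were compared by exact permutation. The members and gene lists were chosen with earlier results of these data known. Genes named are the 12 of smallest p in each direction (none passed), the 4 in each direction with the largest difference without overlap, 5 in each direction for the interaction, Wt1, Tagln and Mx1 and up to 3 of smallest p per list; not all of them are printed, and genes outside these were chosen after their values were seen. The fit was tested on simulated data. Alternatives covered filters, scaling, probe set summary, weights, covariates and each line left out.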

Additional observations from a re-analysis of the deposited data

Results flagged for a closer look

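In 150 groups of 4 Type 3 lines, 15 held a flagged value. The rule was the ratio of its gap from the next value to the range of the 4 lines. A flagged value can therefore lie near the others on the log2 scale. Gbp7 in PGF2-2 read 11.55 against 11.47 to 11.48 in the other Type 3 PGF lines. Trp53rkb in SCF1-13 read 5.01 against 4.91 to 4.93 in the other Type 3 SCF lines. The groups were genes named here and the 2 scores. Many of these genes were chosen from these same values, so the count cannot be set against a chance rate. The named values are those of the outlying line on the log2 scale. SCF3-9 accounts for 5 of the 15, with Krt19 at 6.30, Adh1 at 8.36, Gbp3 at 9.14, Gbp7 at 9.26 and H2-Aa at 7.40. PGF2-2 stood apart in Sox11 at 9.27, Hoxc8 at 8.03, Pnpla2 at 6.13, Gbp7 at 11.55 and Rps4l at 4.31. SCF1-12 stood apart in Tbx15 at 8.53, Tcfl5 at 4.44 and the media acidification score at 4. In that score the other 3 lines are tied, which the rule always flags. PGF2-5 stood apart in Mylk at 11.19, and SCF1-13 in Trp53rkb at 5.01.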

How the results depend on the processing

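The count of 0 genes within Type 3 became 1 with array weights (Zfp182, 2.89, adjusted p = 0.00029 in limma), 1 with the clone-name number in the model (Spink2, 1.42, adjusted p = 0.0314 in limma) and 115 with only number 3 clone names, which sets SCF3-9 alone against PGF3-3 and PGF3-15 and assumes that this lone line varies like the other groups. Leaving out 1 line at a time it ranged from 0 to 1, the 1 being Zfp182 without SCF3-9. The interaction count also ranged from 0 to 1, with Zfp182 passing without SCF3-9 and Aldh1a1 without PGF3-3. It stayed at 0 under the other alternatives run. The count without overlap, 323, became 692 without SCF3-9, an alternative chosen after seeing the data, as were the list medians below.

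Some differences of named genes changed sign, Zfp182, Ebf3 and Tcfl5 among them, whose differences over all 8 lines were 2.23, 1.09 and -1.08. With array weights Cd74 was -0.16, H2-Aa -0.36, Inhbb 0.14 and Rps4l -0.059. With the acidification score in the model Cxcl9 was 0.30, Inhbb 0.080 and Rps4l -0.45. With the clone-name number in the model Cebpa was -0.12, Rps4l -1.03 and Tagln 0.25. With only number 3 clone names Cxcl9 was 1.13, Pnpla2 0.032, Tagln 1.44 and Zfp182 -0.26, and with the mean of probe sets Cxcl9 was 0.016. Leaving out 1 line, the ranges were -1.91 to 0.13 for Cd34, -0.40 to 1.33 for Cd74, -1.43 to 1.38 for Cxcl9, -0.076 to 1.67 for Ebf3, -0.044 to 1.11 for Gbp3, -0.65 to 1.14 for H2-Aa, -0.24 to 0.18 for Inhbb, -0.85 to 1.84 for Rps4l, -0.74 to 0.060 for Tagln and -2.39 to 0.19 for Tcfl5. The difference in profile correlation ranged from -0.020 to 0.117. List medians ranged from -0.12 to 0.45 for type I interferon, -0.17 to 0.67 for interferon-gamma and -0.25 to 0.013 for visceral-type patterning. The cause was not tested. No paired analysis was possible because the labels pair no PGF line with an SCF line. The number in the clone name stood in the model as a covariate, but its meaning is not known, and within Type 3 number 1 occurs only in SCF lines (3) and number 2 only in PGF lines (2), so that number 3 (1 SCF and 2 PGF lines) is the one they share. The precision is limited by 4 clones a group from 1 mouse.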
